A study of Mus musculus with 12 samples.

Results

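The genes described here are 58 protein-coding genes of DNA replication and mitosis, followed across 12 mice whose terminal ileum was sequenced. They were chosen by name: a row of the count table was a member when its symbol was one of 58 listed symbols of S phase and mitosis. All 58 were found among the 23284 genes of the table, all had reads in every library, and all passed the filter on low counts that left 15866 genes to test. Read counts of the members ran from 88 for Gins1 in a separately housed Tcra-/- mouse upward. The list holds 12 genes of replication licensing and origin firing, 5 fork enzymes, 4 genes of nucleotide supply and 5 G1 and S phase cyclins and kinases. It also holds 6 transcription and chromatin regulators, 2 DNA damage checkpoint genes, 7 mitotic cyclins and kinases and 5 genes of the spindle checkpoint and anaphase. The other members are 7 genes of the spindle, its motors and cytokinesis, and 5 genes of the centromere and chromosome structure.

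The study sequenced polyadenylated RNA of the terminal ileum in 4 groups of 3 mice, 1 library per mouse. Rag1-/- mice cannot rearrange antigen receptor genes, which leaves them without mature lymphocytes of either the T or the B lineage. Tcra-/- mice have no alpha chain for the T cell receptor, which removes conventional alpha beta T cells, while their B cells and gamma delta T cells can remain. One group of Tcra-/- mice was co-housed with wild type mice for 4 to 8 weeks, and the other was housed separately. Wild type mice were C57BL/6, and all mice came from Taconic and lived in a specific pathogen free facility. Age is not given for the groups, and sex and age matching are stated for the cage mates of the co-housed mice. The labels do not say whether the sequenced wild type mice were those cage mates, how the Rag1-/- mice were housed, or how many cages there were. Mice of 1 cage are not independent replicates of housing, so the p-values below measure the spread among mice.

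A cell that divides first licenses its origins by loading the MCM helicase, copies its DNA with clamp, ligase and polymerases in S phase, and then builds a spindle on which chromosomes are separated. Transcripts of the replication genes are switched on by E2F factors at the G1 to S transition, and those of the mitotic genes later by B-Myb (Mybl2) and FoxM1. In the small intestine, division is confined largely to the crypts, where stem cells and their transit-amplifying daughters cycle, while the enterocytes of the villus do not divide. Germinal centre B cells of Peyer's patches and activated T cells cycle as well, so whole ileum RNA can hold cell cycle transcripts of several cell types.

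Total counts per library ran from 37061276 to 50581616. The gene Rag1 had 69 to 92 reads in each mouse labelled Rag1-/- and 0 reads in each of the other 9 libraries. The sources used here do not say which part of the gene is deleted, so these reads check nothing about the label. The 8 B cell markers summed to 2.13 to 2.79 CPM (read counts scaled to library size) in Rag1-/- mice, 106 to 155 CPM in co-housed Tcra-/- mice, 46.7 to 83.7 CPM in separate Tcra-/- mice and 149 to 183 CPM in wild type mice. The 7 enterocyte markers of the ileum, among them Vil1, Fabp6 and Slc10a2, had reads in every library of the 4 groups. Exons of 9 members share bases with another gene in the deposited coordinates, on the opposite strand in all but Foxm1. The longest such stretches were 1734 bases between Ccne2 and Ints8 and 1115 bases between Kif20a and Cdc23. Whether counting used strand is not given, so reads of these members cannot be fully told from those of their neighbours.

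Promoters of replication genes carry E2F sites, and those of mitotic genes carry a cell cycle homology region (CHR), often near CCAAT boxes bound by NF-Y. The RefSeq promoter table (GRCm38.p6, 250 bases before to 50 after each start) held 53 windows of 46 members. The other 12 members, which have no entry there, were Ccna2, Ccne2, Ccnd1, Ccnd2, Mcm4, Aurkb, Kif20a, Tpx2, Foxm1, Gins1, Gins2 and Pole. The letters searched on both strands were TTTGAA or TTTAAA for the CHR, TTTCGCGC, TTTGGCGC or TTTCCCGC for E2F, and CCAAT for the CCAAT box. TTTAAA reads alike on both strands, and in 1 member window an E2F match and a CCAAT box shared a letter. The CHR letters stood in 28 of 53 member windows, or 52.8%, and in 27.6% of all 32851 windows. E2F letters stood in 11 member windows, or 20.8%, and in 1.84% of all windows. CCAAT stood in 37 member windows, or 69.8%, and in 37.4% of all windows. CHR letters and CCAAT occurred in 1 window together in 45.3% of member windows and in 10.7% of all windows. By role, CHR letters were found in 5 of 5 mitotic cyclins and kinases with an entry and in 5 of 5 centromere and chromosome structure genes. They were also found in 3 of 9 licensing genes, 1 of 4 fork enzymes and 2 of 4 nucleotide supply genes. E2F letters were found in 6 of 9 licensing genes, but in only 1 of 4 fork enzymes and 0 of 4 nucleotide supply genes. They were found in 1 of 5 mitotic cyclins and kinases and in none of the 5 centromere genes. A match of letters describes the sequence and shows no binding.

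The 150 bases before the start of 6 members follow, 5′ to 3′ on the gene's strand, with CHR, E2F and CCAAT letters of either strand in capitals. They were chosen to show a window with all 3 kinds of letters (Cdk1), mitotic genes with CHR letters and CCAAT (Top2a, Mki67, Plk1 and Ube2c), and a licensing gene with E2F letters (Mcm5).
Cdk1, GRCm38.p6 chr10:69352913-69353062, - strand: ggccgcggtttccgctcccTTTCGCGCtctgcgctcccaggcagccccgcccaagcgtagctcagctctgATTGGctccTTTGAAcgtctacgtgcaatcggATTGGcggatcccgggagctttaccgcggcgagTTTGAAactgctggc
Top2a, GRCm38.p6 chr11:99024190-99024339, - strand: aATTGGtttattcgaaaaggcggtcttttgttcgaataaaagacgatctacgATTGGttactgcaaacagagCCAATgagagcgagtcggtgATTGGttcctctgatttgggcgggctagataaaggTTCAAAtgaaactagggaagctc
Mki67, GRCm38.p6 chr7:135716380-135716529, - strand: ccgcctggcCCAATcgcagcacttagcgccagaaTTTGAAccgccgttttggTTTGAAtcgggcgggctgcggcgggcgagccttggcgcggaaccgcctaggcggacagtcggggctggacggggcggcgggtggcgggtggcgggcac
Plk1, GRCm38.p6 chr7:122159285-122159434, + strand: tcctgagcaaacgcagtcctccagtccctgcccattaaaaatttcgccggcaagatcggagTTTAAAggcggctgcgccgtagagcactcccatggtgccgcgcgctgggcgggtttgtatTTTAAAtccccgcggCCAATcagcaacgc
Ube2c, GRCm38.p6 chr2:164769779-164769928, + strand: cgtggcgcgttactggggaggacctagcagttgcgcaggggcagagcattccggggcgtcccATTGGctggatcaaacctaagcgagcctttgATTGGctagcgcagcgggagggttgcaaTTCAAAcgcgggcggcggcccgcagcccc
Mcm5, GRCm38.p6 chr8:75109359-75109508, + strand: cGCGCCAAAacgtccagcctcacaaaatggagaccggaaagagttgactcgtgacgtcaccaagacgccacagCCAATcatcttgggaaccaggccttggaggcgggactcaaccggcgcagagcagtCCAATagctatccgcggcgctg
The 150 printed bases of Cdk1 hold 2 CHR stretches, 1 E2F stretch and 2 CCAAT boxes, and those of Mcm5 hold 1 E2F stretch, 2 CCAAT boxes and no CHR letters. Over the whole searched window both genes had 3 CCAAT boxes, and Mcm5 had CHR letters farther from its start. By group mean, 5 of the 6 were highest in co-housed Tcra-/- mice and Plk1 was highest in Rag1-/- mice.

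Summed over the 58 members, the level was 2347, 2237 and 2305 CPM in Rag1-/- mice, 2614, 2758 and 2456 CPM in co-housed Tcra-/- mice, 1501, 1476 and 1154 CPM in separate Tcra-/- mice and 1822, 1742 and 2012 CPM in wild type mice. The 4 groups did not overlap in this sum. Co-housed Tcra-/- mice were highest, Rag1-/- mice next, then wild type mice, and separate Tcra-/- mice were lowest. The group means of single genes took that order in 47 of the 58 members and in 13.4% of all genes tested. In whole ileum RNA, fewer dividing cells and less of a transcript per cell cannot be told apart.

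**Figure D1:**
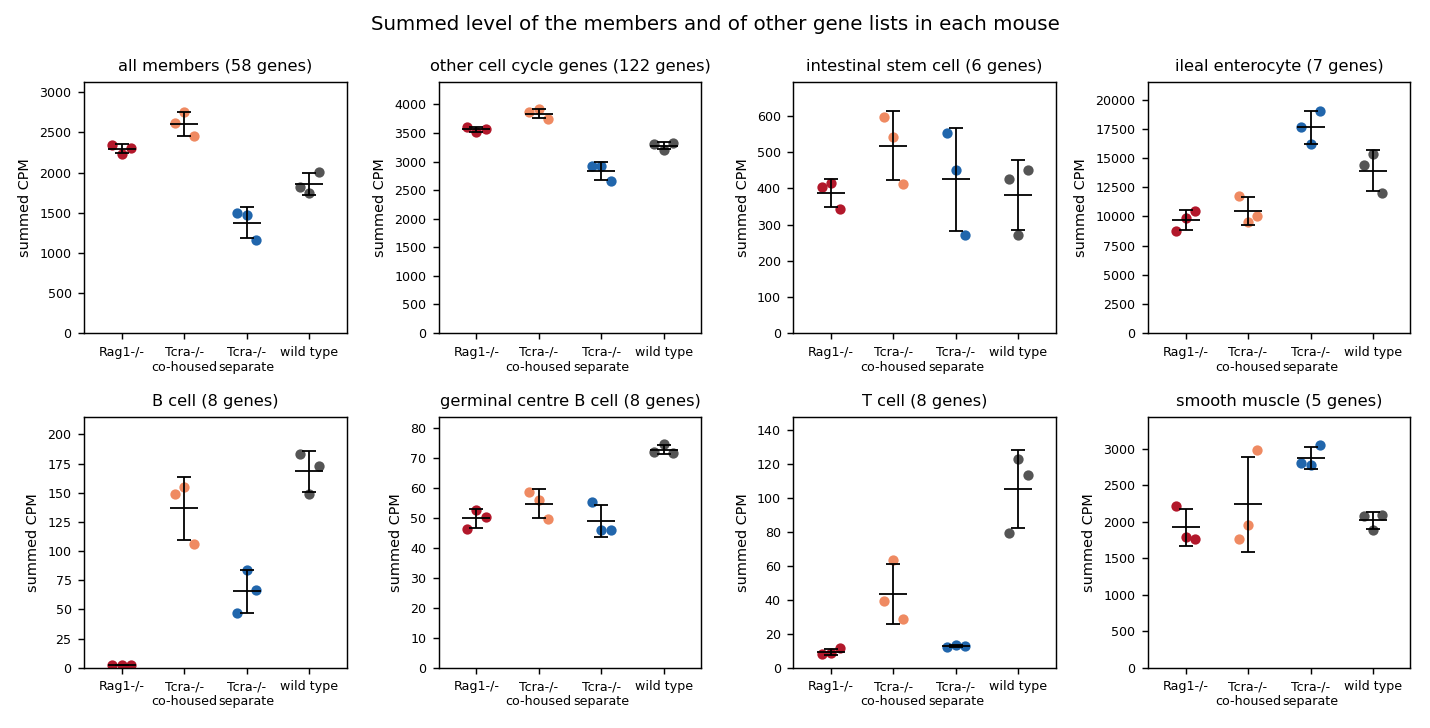
Summed CPM (vertical axes, from 0) of the members and of other gene lists in each of the 12 mice, 1 point per mouse, by group, with the mean and SD (n = 3). The member sum lies at 2456 to 2758 CPM in co-housed Tcra-/- mice and at 1154 to 1501 CPM in separate Tcra-/- mice, with Rag1-/- and wild type mice between them.

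Levels of different genes were compared per length, as CPM divided by the deposited gene length in kilobases (RPKM), averaged over all 12 mice. Pcna, the sliding clamp of the replication fork, had the highest level at 85.1 RPKM. Ccnd1 followed at 44.2 RPKM, Ube2c at 34.5 RPKM and Top2a at 31.8 RPKM. The lowest levels were those of Pole, the catalytic subunit of DNA polymerase epsilon, at 1.27 RPKM and Cdc6 at 1.63 RPKM.

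**Figure D2:**
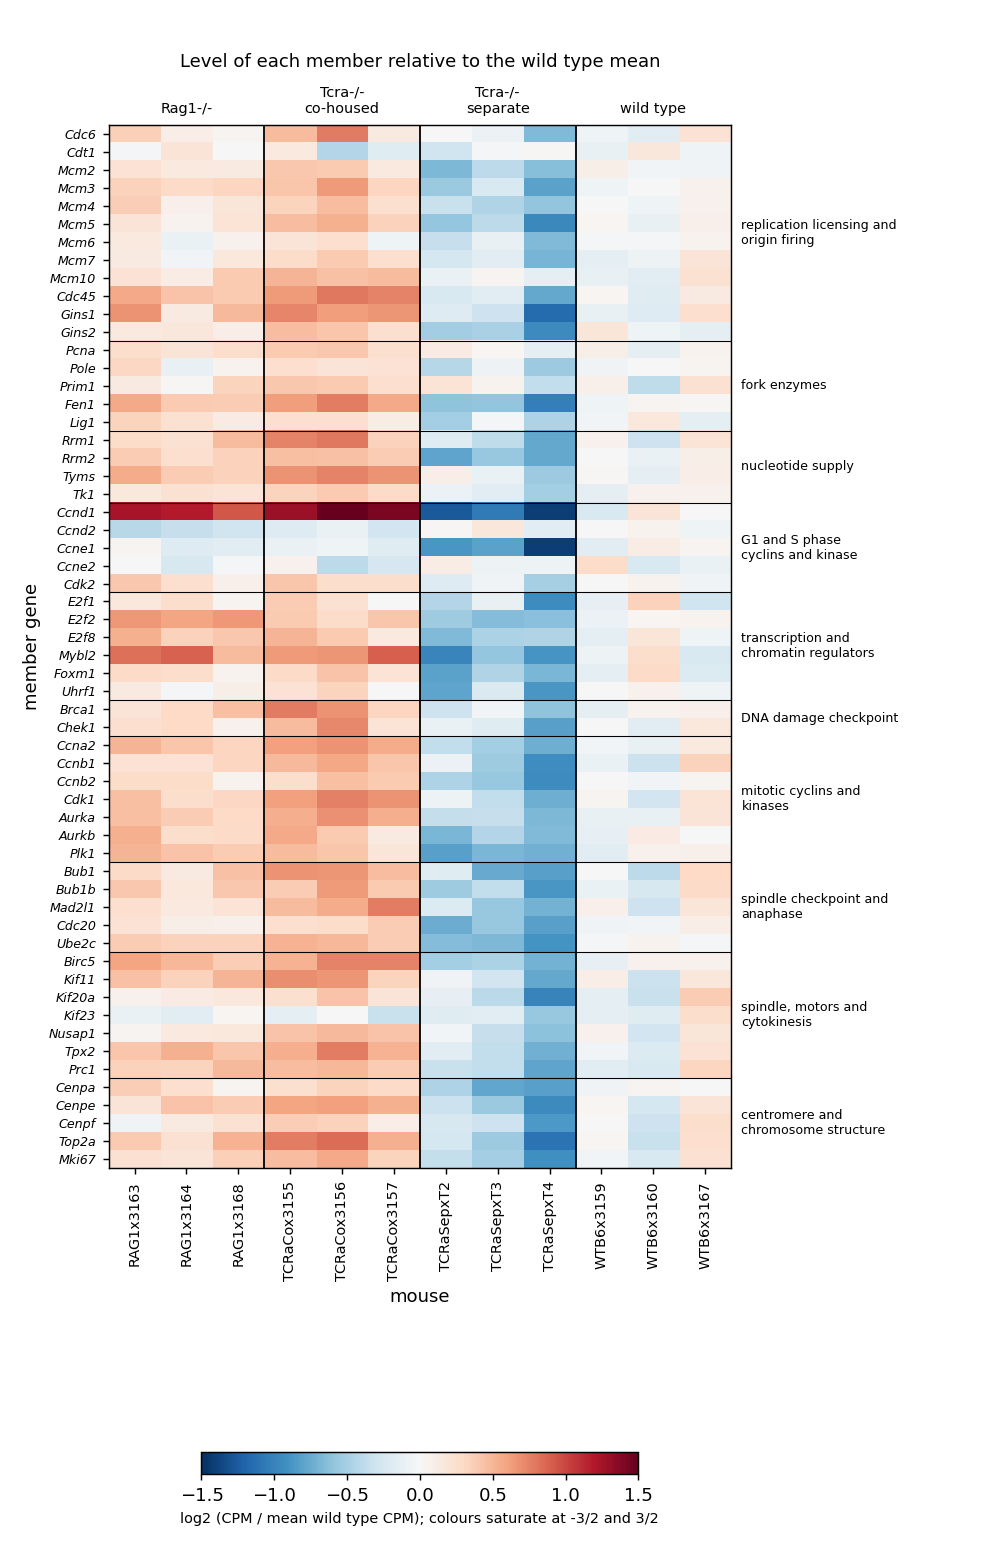
Level of each of the 58 members (rows, by role) in each of the 12 mice (columns, by group), as log2 of its CPM over the gene's mean CPM in wild type mice, with red above and blue below that mean. Most rows are red in co-housed Tcra-/- mice and blue in separate Tcra-/- mice, and TCRaSepxT4 was the lowest of the separate mice in 48 of 58 rows.

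The comparison of co-housed with separate Tcra-/- mice asks, per the design text, how housing changes the ileum of 1 genotype. Cell cycle transcripts were higher in co-housed Tcra-/- mice across every role. Of the 58 members, 52 were called higher and 0 lower at an adjusted p under 0.01 (edgeR's quasi-likelihood test, Benjamini-Hochberg adjustment over all genes). In the same comparison 38.8% of all genes tested were called, 21.1% higher and 17.7% lower. With library size alone, 46 members were called higher and 1 lower, and over all genes 2480 higher and 3695 lower instead of 3347 and 2809. The median log2 fold change was 0.95 over the members, or 1.94-fold, and -0.01 over all genes tested, with members between -0.20 and 2.65. The 3 co-housed mice lay above the 3 separate mice in 54 of 58 members, and the same held for 30.1% of all genes tested. The 6 members not called were Ccnd2, Ccne2, Cdt1, E2f1, Kif23 and Prim1.

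The G1 and S phase cyclins differed most among themselves. Cyclin D1 (Ccnd1, mm9 chromosome 7, 152115836 to 152125830), which activates CDK4 and CDK6 in G1, had 252, 245 and 204 CPM in Rag1-/- mice, 263, 307 and 286 CPM in co-housed Tcra-/- mice, 44.8, 51.4 and 40.5 CPM in separate Tcra-/- mice and 91.7, 123 and 107 CPM in wild type mice. No groups overlapped: co-housed Tcra-/- mice were highest, then Rag1-/-, then wild type, and separate Tcra-/- mice were lowest. Ccnd1 was 6.26-fold higher in co-housed than in separate Tcra-/- mice (log2 fold change of 2.65, SE 0.12, adjusted p = 8.33e-10), the member with the largest fold change. Its paralog Ccnd2 had 124, 129.9 and 135 CPM in Rag1-/- mice, 145, 155 and 136 CPM in co-housed Tcra-/- mice, 167, 186 and 147 CPM in separate Tcra-/- mice and 166, 172 and 159 CPM in wild type mice. The Ccnd2 values of the co-housed and separate mice overlapped (log2 fold change of -0.20, SE 0.08, adjusted p = 0.0503). Cyclin E1 (Ccne1), which activates CDK2 at the entry into S phase, averaged 5.402 ± 0.2303 CPM in co-housed and 2.91 ± 0.6299 CPM in separate Tcra-/- mice and was called higher (log2 fold change of 0.89, SE 0.17, adjusted p = 0.000289). Cyclin E2 (Ccne2), with 11.2 ± 1.83 CPM in co-housed and 12.5 ± 0.956 CPM in separate mice, was not called (log2 fold change of -0.17, SE 0.14, adjusted p = 0.339). Cdk2 itself was 1.46-fold higher (log2 fold change of 0.55, SE 0.11, adjusted p = 0.000579).

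Regulators of cell cycle transcription were higher in co-housed Tcra-/- mice in 5 of 6 cases, with a median log2 fold change of 0.92. Mybl2 (B-Myb, mm9 chromosome 2, 162880371 to 162910423), which drives late cell cycle genes, had 15.4, 16.04 and 12.04 CPM in Rag1-/- mice, 13.5, 13.7 and 16.1 CPM in co-housed Tcra-/- mice, 4.37, 5.801 and 4.68 CPM in separate Tcra-/- mice and 8.25, 10.4 and 7.38 CPM in wild type mice. The separate mice were the lowest 3 of all 12, and Mybl2 was 2.92-fold higher in co-housed mice (log2 fold change of 1.55, SE 0.16, adjusted p = 8.2e-07). E2f2 (mm9 chromosome 4, 135728309 to 135751971), an activator of S phase genes, had 71.3, 68.3 and 70.99 CPM in Rag1-/- mice, 59.4, 54.9 and 60.3 CPM in co-housed Tcra-/- mice, 31.3, 28.9 and 29.4 CPM in separate Tcra-/- mice and 42.5, 46.3 and 47.1 CPM in wild type mice. No groups overlapped, Rag1-/- mice were highest, and the fold change of co-housed over separate mice was 1.95 (log2 fold change of 0.96, SE 0.07, adjusted p = 2.38e-08). Foxm1, a factor of G2 and mitosis genes, had 16.4, 16.2 and 13.96 CPM in Rag1-/- mice, 16.3, 18.04 and 15.4 CPM in co-housed Tcra-/- mice, 7.702, 9.81 and 8.36 CPM in separate Tcra-/- mice and 12.3, 16.4 and 11.6 CPM in wild type mice. All 3 co-housed mice were above the separate mice, with a fold change of 1.93 (log2 fold change of 0.95, SE 0.14, adjusted p = 2.75e-05). E2f8, an atypical E2F that represses transcription, had 12.9, 11.3 and 11.7 CPM in Rag1-/- mice, 12.6, 11.7 and 9.805 CPM in co-housed Tcra-/- mice, 5.62, 6.38 and 6.47 CPM in separate Tcra-/- mice and 8.05, 10.1 and 8.47 CPM in wild type mice. The separate mice were again lowest (log2 fold change of 0.88, SE 0.13, adjusted p = 3.33e-05). E2f1 missed the threshold, with 5.17 ± 0.661 CPM in co-housed and 3.25 ± 0.915 CPM in separate mice (log2 fold change of 0.67, SE 0.21, adjusted p = 0.0142). Uhrf1, which keeps DNA methylation through replication, was 1.73-fold higher (log2 fold change of 0.79, SE 0.14, adjusted p = 0.000253).

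Of the 12 licensing and origin firing genes, 11 were called higher in co-housed Tcra-/- mice, with a median log2 fold change of 0.84. Mcm5 (mm9 chromosome 8, 77633427 to 77652338), a subunit of the replicative helicase, had 36.1, 32.8 and 36.2 CPM in Rag1-/- mice, 43.3, 45.6 and 40.1 CPM in co-housed Tcra-/- mice, 21.1, 23.97 and 16.1 CPM in separate Tcra-/- mice and 32.01, 29.2 and 33.2 CPM in wild type mice. All 3 co-housed mice were above the other 9 mice, and Mcm5 was 2.11-fold higher than in separate mice (log2 fold change of 1.08, SE 0.11, adjusted p = 1.3e-06). Mcm2, another helicase subunit, had 28.6, 27.2 and 27.1 CPM in Rag1-/- mice, 32.6, 32.2 and 27.2 CPM in co-housed Tcra-/- mice, 15.4, 18.8 and 15.8 CPM in separate Tcra-/- mice and 26.1, 23.95 and 23.7 CPM in wild type mice. The separate mice did not overlap any other group (log2 fold change of 0.88, SE 0.09, adjusted p = 1.51e-06). Mcm3 had 30.1, 28.8 and 29.6 CPM in Rag1-/- mice, 31.5, 36.6 and 29.5 CPM in co-housed Tcra-/- mice, 16.1, 20.1 and 13.6 CPM in separate Tcra-/- mice and 22.5, 23.7 and 24.7 CPM in wild type mice. Mcm4 had 34.9, 28.6 and 30.8 CPM in Rag1-/- mice, 34.2, 37.3 and 31.8 CPM in co-housed Tcra-/- mice, 21.5, 19.8 and 18.02 CPM in separate Tcra-/- mice and 26.99, 25.9 and 28.3 CPM in wild type mice. In both genes no separate mouse reached a mouse of another group. Mcm3 was 1.96-fold higher in co-housed mice (log2 fold change of 0.97, SE 0.12, adjusted p = 5.14e-06). Mcm4 was 1.74-fold higher (log2 fold change of 0.80, SE 0.09, adjusted p = 3.77e-06). Mcm6, the helicase subunit with the highest level per length, had 61.6, 52.1 and 58.3 CPM in Rag1-/- mice, 63.8, 66.6 and 53.2 CPM in co-housed Tcra-/- mice, 43.95, 51.5 and 35.1 CPM in separate Tcra-/- mice and 54.7, 54.6 and 57.9 CPM in wild type mice. Its difference was smaller, at 1.41-fold (log2 fold change of 0.49, SE 0.12, adjusted p = 0.00286). Cdc45, which joins the helicase when origins fire, had 12.6, 11.4 and 11.2 CPM in Rag1-/- mice, 13.3, 14.7 and 14.2 CPM in co-housed Tcra-/- mice, 7.26, 7.62 and 4.99 CPM in separate Tcra-/- mice and 8.68, 7.48 and 9.32 CPM in wild type mice. Co-housed mice were highest, at 2.12-fold over separate mice (log2 fold change of 1.09, SE 0.14, adjusted p = 1.29e-05). Mcm7, Mcm10, Cdc6, Gins1 and Gins2 were called too, at log2 fold changes between 0.54 for Mcm10 and 1.16 for Gins1. Cdt1, which loads the helicase together with Cdc6, had 12.8 ± 2.63 CPM in co-housed and 13.2 ± 1.52 CPM in separate mice and was not called (log2 fold change of -0.04, SE 0.14, adjusted p = 0.825).

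At the fork, 4 of 5 members were called, and the enzymes differed in size of change. Fen1 (mm9 chromosome 19, 10273629 to 10278433), the nuclease that removes Okazaki fragment flaps, had 35.5, 31.4 and 31.1 CPM in Rag1-/- mice, 37.1, 40.6 and 35.6 CPM in co-housed Tcra-/- mice, 15.8, 15.9 and 11.7 CPM in separate Tcra-/- mice and 22.9, 24.7 and 24.2 CPM in wild type mice. No separate mouse reached any mouse of another group, and Fen1 was 2.61-fold higher in co-housed mice (log2 fold change of 1.38, SE 0.11, adjusted p = 4.62e-08). Pcna (mm9 chromosome 2, 132075022 to 132078916) had 115, 110.1 and 115 CPM in Rag1-/- mice, 126, 128 and 113 CPM in co-housed Tcra-/- mice, 105, 98.4 and 87.1 CPM in separate Tcra-/- mice and 102, 86.7 and 99.5 CPM in wild type mice. Co-housed mice lay above separate mice without overlap, at a fold change of 1.27 (log2 fold change of 0.34, SE 0.08, adjusted p = 0.00234). Lig1, the ligase that joins Okazaki fragments, and Pole were called at log2 fold changes of 0.52 and 0.56. Prim1, the primase subunit, averaged 15.1 ± 0.871 CPM in co-housed and 11.7 ± 2.31 CPM in separate mice and was not called (log2 fold change of 0.37, SE 0.16, adjusted p = 0.0645). All 4 genes of nucleotide supply were called. Rrm2, the regulated subunit of ribonucleotide reductase, had 19.5, 17.8 and 19.04 CPM in Rag1-/- mice, 20.5, 20.3 and 19.5 CPM in co-housed Tcra-/- mice, 8.62, 10.1 and 8.82 CPM in separate Tcra-/- mice and 14.9, 14.01 and 15.9 CPM in wild type mice. Tk1, thymidine kinase 1, had 23.7, 24.9 and 24.7 CPM in Rag1-/- mice, 26.96, 27.98 and 25.997 CPM in co-housed Tcra-/- mice, 20.01, 19.1 and 14.9 CPM in separate Tcra-/- mice and 19.4, 22.3 and 22.2 CPM in wild type mice. Rrm2 was 2.19-fold higher (log2 fold change of 1.13, SE 0.09, adjusted p = 9.99e-08), and in it the separate mice stood below all other mice. Tk1 was 1.498-fold higher (log2 fold change of 0.58, SE 0.10, adjusted p = 0.000166). Rrm1 and Tyms had log2 fold changes of 1.06 and 0.86.

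Both DNA damage checkpoint genes were called. Chek1, the kinase that answers stalled forks, had 6.91, 7.11 and 6.06 CPM in Rag1-/- mice, 8.05, 9.53 and 6.68 CPM in co-housed Tcra-/- mice, 5.42, 5.13 and 3.303 CPM in separate Tcra-/- mice and 5.78, 5.14 and 6.46 CPM in wild type mice. Its co-housed mice were above its separate mice (log2 fold change of 0.81, SE 0.18, adjusted p = 0.0015). Brca1, which acts in repair by homologous recombination, was 1.88-fold higher (log2 fold change of 0.91, SE 0.15, adjusted p = 8.85e-05).

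All 7 mitotic cyclins and kinases were called higher in co-housed Tcra-/- mice, with log2 fold changes between 0.97 and 1.15. Cyclin A2 (Ccna2, mm9 chromosome 3, 36463787 to 36470918), the partner of CDK2 and CDK1, had 94.1, 87.7 and 82.2 CPM in Rag1-/- mice, 101, 105 and 96.8 CPM in co-housed Tcra-/- mice, 50.95, 46.3 and 39.5 CPM in separate Tcra-/- mice and 63.8, 60.9 and 72.7 CPM in wild type mice. No groups overlapped, and Ccna2 was 2.21-fold higher in co-housed than in separate mice (log2 fold change of 1.15, SE 0.09, adjusted p = 7.59e-08). Cyclin B2 (Ccnb2) had 30.4, 30.5 and 26.2 CPM in Rag1-/- mice, 30.3, 34.4 and 33.03 CPM in co-housed Tcra-/- mice, 18.3, 16.96 and 13.1 CPM in separate Tcra-/- mice and 25.1, 24.5 and 25.9 CPM in wild type mice. The separate mice were the lowest 3, at a fold change of 2.02 (log2 fold change of 1.02, SE 0.11, adjusted p = 1.46e-06). Polo-like kinase 1 (Plk1, mm9 chromosome 7, 129302951 to 129313389), needed for spindle formation, had 18.7, 17.8 and 17.2 CPM in Rag1-/- mice, 18.4, 17.5 and 15.004 CPM in co-housed Tcra-/- mice, 7.48, 8.18 and 8.01 CPM in separate Tcra-/- mice and 11.9, 13.8 and 13.95 CPM in wild type mice. Separate mice were below every other mouse (log2 fold change of 1.11, SE 0.11, adjusted p = 4.42e-07). Aurora A (Aurka), the centrosome kinase, had 19.2, 18.4 and 17.3 CPM in Rag1-/- mice, 20.6, 22.6 and 20.5 CPM in co-housed Tcra-/- mice, 10.97, 11.04 and 8.86 CPM in separate Tcra-/- mice and 13.1, 13.1 and 16.1 CPM in wild type mice. Aurora B (Aurkb), the kinase of the chromosomal passenger complex, had 18.3, 15.1 and 15.4 CPM in Rag1-/- mice, 18.7, 16.6 and 13.9 CPM in co-housed Tcra-/- mice, 7.83, 9.32 and 7.98 CPM in separate Tcra-/- mice and 11.6, 13.7 and 12.6 CPM in wild type mice. In both genes the separate mice were the lowest 3. Aurka was 2.06-fold higher in co-housed mice (log2 fold change of 1.04, SE 0.11, adjusted p = 1.48e-06). Aurkb was 1.96-fold higher (log2 fold change of 0.97, SE 0.13, adjusted p = 1.08e-05). Cdk1 and Ccnb1, which form the kinase that starts mitosis, were 2.07-fold and 1.96-fold higher in co-housed than in separate mice. Cdk1 averaged 44.7 ± 3.07 CPM in Rag1-/- mice, 56.3 ± 2.71 CPM in co-housed Tcra-/- mice, 27.2 ± 6.1004 CPM in separate Tcra-/- mice and 35.1 ± 5.91 CPM in wild type mice.

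The 5 genes of the spindle checkpoint and anaphase were all called, with a median log2 fold change of 1.08. Ube2c (mm9 chromosome 2, 164595429 to 164598402), the ubiquitin-conjugating enzyme of the anaphase-promoting complex, had 39.3, 38.3 and 38.4 CPM in Rag1-/- mice, 43.3, 42.6 and 39.2 CPM in co-housed Tcra-/- mice, 19.2, 18.9 and 16.2 CPM in separate Tcra-/- mice and 29.8, 31.3 and 29.5 CPM in wild type mice. Separate mice lay below all others, and the fold change of co-housed over separate mice was 2.305 (log2 fold change of 1.20, SE 0.08, adjusted p = 8.68e-09). Cdc20, an activator of that complex, had 28.05, 25.6 and 25.5 CPM in Rag1-/- mice, 28.8, 29.1 and 31.5 CPM in co-housed Tcra-/- mice, 14.4, 16.3 and 13.7 CPM in separate Tcra-/- mice and 23.2, 23.4 and 25.8 CPM in wild type mice. The 3 separate mice were the lowest of the 12, at a fold change of 2.01 (log2 fold change of 1.01, SE 0.09, adjusted p = 1.45e-07). Mad2l1, which holds Cdc20 in check until chromosomes are attached, had 27.5, 25.6 and 26.7 CPM in Rag1-/- mice, 32.05, 33.9 and 39.5 CPM in co-housed Tcra-/- mice, 20.1, 15.7 and 14.2 CPM in separate Tcra-/- mice and 24.4, 18.7 and 26.3 CPM in wild type mice. Bub1b, its partner in the checkpoint complex, had 29.1, 24.7 and 29.1 CPM in Rag1-/- mice, 28.8, 34.3 and 28.97 CPM in co-housed Tcra-/- mice, 15.2, 17.1 and 12.1 CPM in separate Tcra-/- mice and 20.6, 18.7 and 26.8 CPM in wild type mice. Co-housed and separate mice did not overlap in either gene. Mad2l1 was 2.11-fold higher in co-housed mice (log2 fold change of 1.08, SE 0.14, adjusted p = 1.2e-05). Bub1b was 2.08-fold higher (log2 fold change of 1.06, SE 0.14, adjusted p = 2.5e-05). Bub1, the kinase that recruits them to kinetochores, had a log2 fold change of 1.16.

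Of the 7 genes of the spindle, motors and cytokinesis, 6 were called. Birc5 (survivin, mm9 chromosome 11, 117710551 to 117717057), a subunit of the chromosomal passenger complex, had 51.4, 48.3 and 43.8 CPM in Rag1-/- mice, 48.7, 57.1 and 56.9 CPM in co-housed Tcra-/- mice, 23.98, 24.6 and 20.8 CPM in separate Tcra-/- mice and 31.2, 35.5 and 35.5 CPM in wild type mice. Co-housed and separate mice did not overlap, at a fold change of 2.35 (log2 fold change of 1.23, SE 0.09, adjusted p = 3.91e-08). Tpx2, which activates Aurora A on the spindle, had 36.5, 39.6 and 36.3 CPM in Rag1-/- mice, 39.7, 46.4 and 39.2 CPM in co-housed Tcra-/- mice, 24.3, 21.2 and 16.6 CPM in separate Tcra-/- mice and 26.5, 23.7 and 31.7 CPM in wild type mice. Its co-housed mice stood above its separate mice. Tpx2 was 2.02-fold higher (log2 fold change of 1.01, SE 0.13, adjusted p = 1.29e-05). Kif11, Kif20a, Nusap1 and Prc1 were called at log2 fold changes between 0.76 for Kif20a and 0.93 for Prc1. Kif23, a motor of the central spindle, averaged 27.5 ± 3.06 CPM in co-housed and 24.99 ± 3.78 CPM in separate mice and was not called (log2 fold change of 0.14, SE 0.13, adjusted p = 0.402). All 5 genes of the centromere and chromosome structure were called. Top2a (mm9 chromosome 11, 98854261 to 98885503), which untangles sister chromatids, had 189, 169 and 207 CPM in Rag1-/- mice, 244, 257 and 208 CPM in co-housed Tcra-/- mice, 119.6, 98.4 and 66.7 CPM in separate Tcra-/- mice and 146, 114 and 171 CPM in wild type mice. The spread was wide among mice of a group, and the fold change was 2.49 (log2 fold change of 1.32, SE 0.21, adjusted p = 0.000424). Cenpa, the centromeric histone H3 variant, had 23.5, 21.7 and 18.7 CPM in Rag1-/- mice, 21.5, 22.98 and 22.2 CPM in co-housed Tcra-/- mice, 13.2, 10.6 and 10.3 CPM in separate Tcra-/- mice and 17.5, 18.8 and 18.3 CPM in wild type mice. Cenpe, a kinetochore motor, had 33.1, 38.9 and 37.6 CPM in Rag1-/- mice, 43.7, 44.5 and 41.99 CPM in co-housed Tcra-/- mice, 23.2, 19.7 and 14.98 CPM in separate Tcra-/- mice and 29.6, 24.1 and 33.1 CPM in wild type mice. In both genes no separate mouse reached another group. Cenpa was 1.96-fold higher in co-housed mice (log2 fold change of 0.97, SE 0.11, adjusted p = 2.12e-06). Cenpe was 2.25-fold higher (log2 fold change of 1.17, SE 0.14, adjusted p = 8.56e-06). Mki67, the proliferation antigen Ki-67, averaged 217 ± 18.1 CPM in co-housed and 106 ± 20.1 CPM in separate mice, a 2.05-fold difference (log2 fold change of 1.04, SE 0.14, adjusted p = 2.96e-05).

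**Figure D3:**
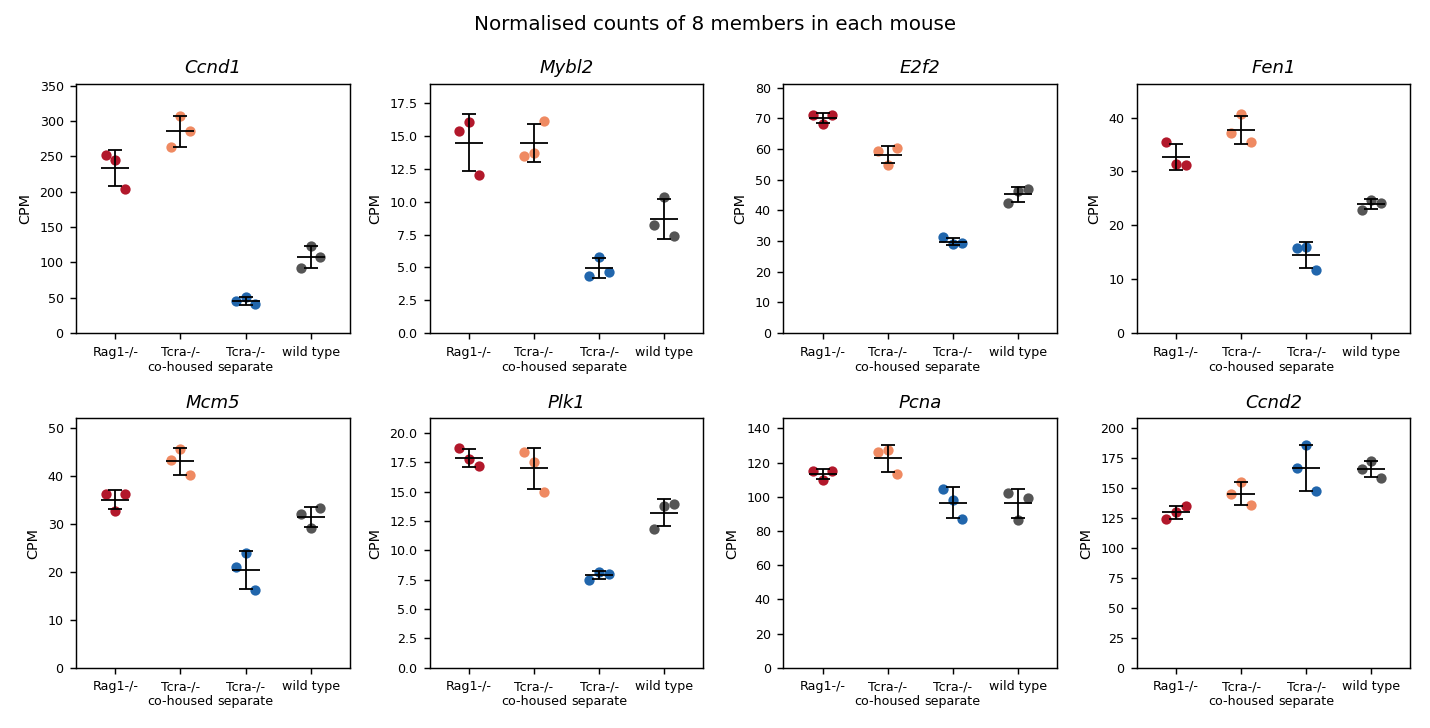
CPM (vertical axes, from 0) of 8 members in each of the 12 mice, 1 point per mouse, with the group mean as a short line and its SD as an error bar (n = 3). Ccnd1 lies at 263 to 307 CPM in co-housed Tcra-/- mice and at 40.5 to 51.4 CPM in separate Tcra-/- mice.

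Markers of other cell types differed between the same groups. The enterocyte list summed to 9506 to 11771 CPM in co-housed Tcra-/- mice and 16213 to 19022 CPM in separate Tcra-/- mice, with 4 of 7 genes called lower. The T cell list summed to 28.6 to 63.1 CPM in co-housed and 12.4 to 13.2 CPM in separate mice, with 6 of 8 called higher. The 5 tested plasma cell genes summed to 767 to 986 CPM in co-housed and 407 to 421 CPM in separate mice, with 4 of 5 called higher and Sdc1 called lower. The same genes summed to 628 to 678 CPM in Rag1-/- mice, which lack mature B cells. The sum therefore does not measure plasma cells alone. The myeloid list summed to 203 to 322 CPM in co-housed and 103 to 129 CPM in separate mice, with 6 of 6 called higher. The 5 tested goblet cell genes summed to 7454 to 7880 CPM in co-housed and 10182 to 11080 CPM in separate mice. Of these, 1 was called higher and 2 lower. The smooth muscle list summed to 1766 to 2984 CPM in co-housed and 2771 to 3045 CPM in separate mice, with 1 of 5 genes called lower. The B cell list, whose sums are given above, had 4 of 8 genes called higher and 0 lower. The germinal centre list summed to 49.6 to 58.8 CPM in co-housed and 45.9 to 55.3 CPM in separate mice, with Fas and Gpr183 called higher, Rgs13 called lower and 5 of 8 not called. The same list summed to 46.4 to 52.8 CPM in Rag1-/- mice, so it does not measure germinal centre B cells alone. Its member Mef2b, a transcription factor gene that did not have reads in every library, averaged 0.1403 CPM in co-housed and 0.0379 CPM in separate mice. At these low levels it was not called. Of 6 stem cell genes, among them Lgr5, Olfm4 and Smoc2, 0 were called by edgeR in any of the 6 comparisons, and at most 2 in a comparison had an unadjusted p under 0.05. The stem cell list summed to 412 to 598 CPM in co-housed and 272 to 553 CPM in separate mice, so that the groups overlapped. Among co-housed mice, TCRaCox3157 was lowest in 41 of 58 members, against 37.1% of all genes tested. Its Paneth cell list summed to 20056 CPM against 8724 and 5456 CPM in TCRaCox3155 and TCRaCox3156. Its smooth muscle list summed to 2984 CPM against 1766 and 1958 CPM in the same mice. The part of these cell types in the member differences was not tested.

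The comparison of Rag1-/- with wild type mice is the other one stated in the design text. Of the 58 members, 8 (13.8%) were called higher in Rag1-/- mice, 1 was called lower and 49 were not called. Of all genes tested, 9.42% were called higher and 11.5% lower, so at this setting the share of members called higher was near that of all genes. That did not hold at every setting. DESeq2 called 14 members and 1940 of 15866 genes higher. An adjusted p under 0.05 with edgeR gave 18 members and 2321 genes higher. The median log2 fold change was 0.25 over the members and -0.02 over all genes, and 54 of 58 members had a positive one. Rag1-/- mice lay above wild type mice in 27 members and below them in 1, while 22.2% of all genes lay above and 23.5% below. In all, 29 of 58 members had an unadjusted p under 0.05, as had 40.6% of all genes.

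The 8 higher members were Birc5, Ccna2, Ccnd1, E2f2, Fen1, Mybl2, Plk1 and Ube2c, whose values per mouse are given above. Ccnd1 was 2.18-fold higher (log2 fold change of 1.12, SE 0.12, adjusted p = 3.59e-06) and averaged 234 ± 25.6 CPM in Rag1-/- and 107 ± 15.6 CPM in wild type mice. Mybl2 followed at 1.67-fold (log2 fold change of 0.74, SE 0.15, adjusted p = 0.00138), and E2f2 at 1.55-fold (log2 fold change of 0.63, SE 0.07, adjusted p = 3.68e-06). The other 5 had fold changes between 1.28 for Ube2c (log2 fold change of 0.36, SE 0.08, adjusted p = 0.00207) and 1.405 for Birc5 (log2 fold change of 0.49, SE 0.09, adjusted p = 0.000675). Each of the 8 had its 3 Rag1-/- values above its 3 wild type values. The member called lower was Ccnd2, with 129.7 ± 5.35 CPM in Rag1-/- and 166 ± 6.77 CPM in wild type mice (log2 fold change of -0.35, SE 0.08, adjusted p = 0.00319), so that the 2 D cyclins were called in opposite directions. None of the 12 licensing genes was called, with a median log2 fold change of 0.17 over them and values between 0.04 for Mcm6 and 0.46 for Cdc45. Top2a and Mki67, common marks of proliferation, averaged 188 ± 19.3 CPM and 189 ± 11.1 CPM in Rag1-/- mice against 144 ± 28.7 CPM and 158 ± 24.9 CPM in wild type mice and were not called (adjusted p = 0.192 and 0.164).

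The scaling mattered here. With library size alone in place of TMM factors, the median of all genes shifted to -0.19 and that of the members to 0.08, and 3 members were called higher and 1 lower, over all genes 713 higher and 3218 lower instead of 1494 and 1820. Without mouse RAG1x3163, or without wild type mouse WTB6x3159, 4 members were called higher, and over all genes 1079 and 1092. The Ccnd2 call was lost without mouse RAG1x3163 or RAG1x3164, or without wild type mouse WTB6x3159 or WTB6x3160. All 8 T cell and all 8 B cell genes were called lower in Rag1-/- than in wild type mice, as were 6 of 8 germinal centre genes. The T cell list summed to 8.13 to 11.4 CPM in Rag1-/- and 79.5 to 123 CPM in wild type mice. The plasma cell list summed to 628 to 678 CPM in Rag1-/- and 1683 to 2210 CPM in wild type mice, with Igj and Tnfrsf17 called lower and Prdm1 and Xbp1 called higher. The enterocyte list summed to 8777 to 10485 CPM in Rag1-/- and 11974 to 15383 CPM in wild type mice, with 3 of 7 genes called lower. Their part in the member differences was not tested.

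**Figure D4:**
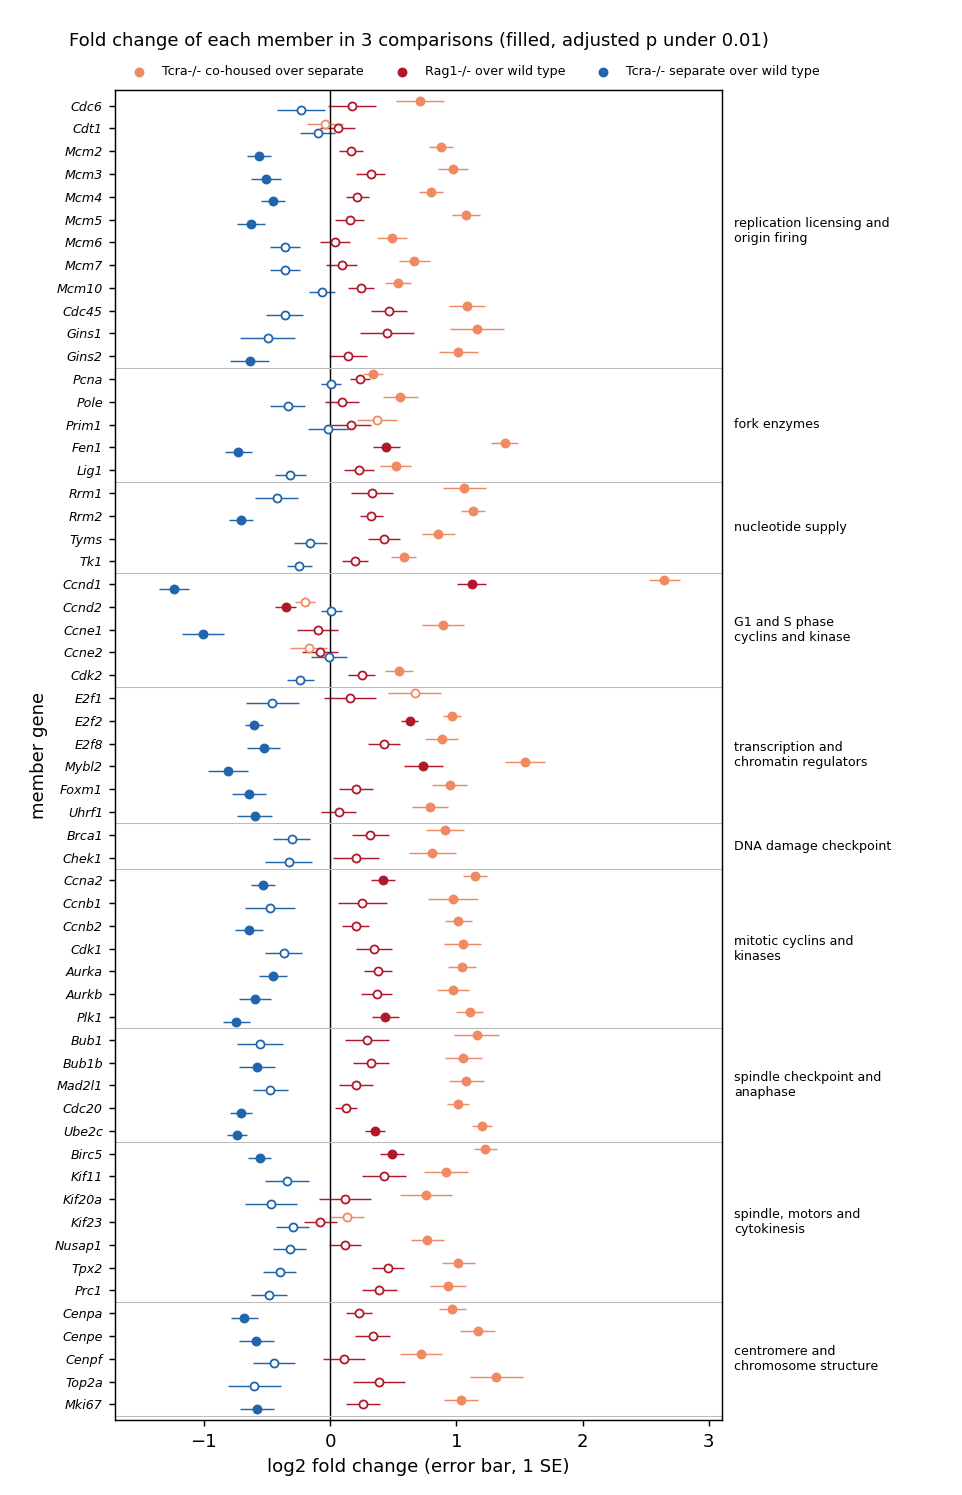
Log2 fold change (horizontal axis) of each of the 58 members (rows, by role), with 1 SE as error bar and filled points for called members, in 3 comparisons: co-housed over separate Tcra-/- mice, Rag1-/- over wild type mice and separate Tcra-/- over wild type mice. Points lie mostly right of 0 for co-housed over separate and for Rag1-/- over wild type mice and left of 0 for separate over wild type mice, with Ccnd1 the farthest from 0 in each.

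Each Tcra-/- group was also set against wild type mice. In separate Tcra-/- mice, 0 members were called higher and 26 lower, where 6.06% of all genes tested were called higher and 7.7% lower, and the median log2 fold change was -0.48. The separate mice lay below the wild type mice in 31 members and above them in 0, while 19.8% of all genes lay below and 20.9% above. Ccnd1 fell most (log2 fold change of -1.24, SE 0.12, adjusted p = 5.17e-06), to 45.5 ± 5.502 CPM in separate Tcra-/- mice against 107 ± 15.6 CPM in wild type mice. Ccne1 (log2 fold change of -1.01, SE 0.16, adjusted p = 0.000349), Mybl2 (log2 fold change of -0.81, SE 0.16, adjusted p = 0.00148) and Plk1 (log2 fold change of -0.74, SE 0.11, adjusted p = 0.000108) followed. Of the 6 transcription and chromatin regulators 5 were called lower, as were 5 of 7 mitotic cyclins and kinases and 5 of 12 licensing genes. Pcna, with 96.7 ± 8.898 CPM in separate Tcra-/- and 96.1 ± 8.31 CPM in wild type mice, was not called (log2 fold change of 0.01, SE 0.08, adjusted p = 0.956). Separate mouse TCRaSepxT4 was the lowest of its group in 48 of 58 members, against 36.2% of all genes tested. Without it 14 members were called lower, and over all genes 791. Wild type mouse WTB6x3167 was the highest of its group in 38 members, against 33.8% of all genes tested. Without WTB6x3167, 17 members were called lower, and over all genes 896. TCRaSepxT4 also had the lowest stem cell sum of its group, at 272 CPM against 553 and 452 CPM in TCRaSepxT2 and TCRaSepxT3, and the lowest Paneth cell sum, at 7441 CPM. Called lower in separate Tcra-/- than in wild type mice were also 8 of 8 T cell, 7 of 8 B cell, 6 of 8 germinal centre, 4 of 5 plasma cell and 4 of 6 myeloid genes. The enterocyte list summed to 16213 to 19022 CPM in separate Tcra-/- mice and 11974 to 15383 CPM in wild type mice, with 0 of 7 genes called by edgeR and 3 at an unadjusted p under 0.05. The smooth muscle list summed to 2771 to 3045 CPM in separate Tcra-/- mice and 1883 to 2088 CPM in wild type mice. Of its 5 genes, Tagln was called higher, and all 5 had an unadjusted p under 0.05 by edgeR. The goblet cell list summed to 10182 to 11080 CPM in separate Tcra-/- mice and 8951 to 9758 CPM in wild type mice, with 0 of 5 genes called by edgeR. The part of these cell types in the member differences was not tested.

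In co-housed Tcra-/- mice, 21 members were called higher and 0 lower than in wild type mice, where 9.34% of all genes tested were called higher and 9.19% lower. The median log2 fold change was 0.44, and the co-housed mice lay above the wild type mice in 44 members, as in 20.9% of all genes. Ccnd1 was 2.66-fold higher (log2 fold change of 1.41, SE 0.12, adjusted p = 8.05e-07), Mybl2 1.67-fold (log2 fold change of 0.74, SE 0.15, adjusted p = 0.00166) and Cdc45 1.65-fold (log2 fold change of 0.73, SE 0.14, adjusted p = 0.00115). Tyms, which makes thymidylate, was 1.62-fold higher (log2 fold change of 0.70, SE 0.13, adjusted p = 0.000701), with 24.6 ± 0.715 CPM in co-housed and 15.1 ± 1.22 CPM in wild type mice. The housing comparisons of Tcra-/- mice with wild type mice share the wild type libraries, and 13 members were called higher in co-housed and lower in separate mice. These were Aurka, Birc5, Ccna2, Ccnd1, Cenpe, E2f2, Fen1, Mcm3, Mcm4, Mcm5, Mybl2, Rrm2 and Ube2c. How many of all genes had both calls was not counted, so this number is not read as particular to the members. Without wild type mouse WTB6x3160, 10 members and 1070 of all genes were called higher in co-housed than in wild type mice. Without wild type mouse WTB6x3159 the counts were 12 and 1063, and without co-housed mouse TCRaCox3156 they were 13 and 1129. With library size alone 9 members were called higher, and over all genes 795 were called higher and 2449 lower instead of 1482 and 1458. Between the same groups 6 of 8 T cell, 5 of 8 germinal centre and 3 of 7 enterocyte genes were called lower, and 0 of 8 B cell genes were called in either direction by edgeR, with 2 at an unadjusted p under 0.05. Their part in the member differences was not tested.

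Rag1-/- mice were also set against each Tcra-/- group. Between Rag1-/- and co-housed Tcra-/- mice, 0 of 58 members were called in either direction by edgeR, and 9 had an unadjusted p under 0.05, as had 18.0% of all genes. Of all genes tested, 2.89% were called, 0.34% higher and 2.55% lower. The median log2 fold change over the members was -0.17, with the Rag1-/- mice below the co-housed mice in 22 members and above them in 1, while 13.0% of all genes lay below and 9.74% above. That 1 member was E2f2, with 70.2 ± 1.62 CPM in Rag1-/- and 58.2 ± 2.87 CPM in co-housed Tcra-/- mice (log2 fold change of 0.27, SE 0.07, adjusted p = 0.0274), which DESeq2 called higher. Against separate Tcra-/- mice, Rag1-/- mice had 43 members called higher and 1 lower, where 18.0% of all genes were called higher and 18.1% lower, with a median log2 fold change of 0.77. With library size alone, the members called were 32 higher and 1 lower, and over all genes 1709 higher and 4264 lower instead of 2852 and 2869. Ccnd1 was 5.13-fold higher (log2 fold change of 2.36, SE 0.12, adjusted p = 1.98e-09) and Mybl2 2.93-fold higher (log2 fold change of 1.55, SE 0.16, adjusted p = 8.77e-07), while Ccnd2 was called lower (log2 fold change of -0.36, SE 0.08, adjusted p = 0.00155). The Ccnd2 call was lost without mouse RAG1x3163 or separate mouse TCRaSepxT3.

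A further 122 genes of the cell cycle that are not members were counted in the same tests, all of which passed the filter. In co-housed against separate Tcra-/- mice, 79 (64.8%) were called higher and 8 lower, with a median log2 fold change of 0.65, where 21.1% of all genes were called higher. In Rag1-/- against wild type mice 10 (8.2%) were called higher and 2 lower, with a median of 0.17, and 9.42% of all genes were called higher. Tacc3, a spindle protein, averaged 30.9 CPM in co-housed and 13.5 CPM in separate Tcra-/- mice (log2 fold change of 1.20, SE 0.09, adjusted p = 2.28e-08). Cks1b, a small subunit of cyclin-dependent kinases, averaged 15.1 CPM in co-housed and 5.83 CPM in separate mice (log2 fold change of 1.37, SE 0.12, adjusted p = 2.02e-07). H2afz, which encodes the histone variant H2A.Z, averaged 346 CPM in Rag1-/- and 229 CPM in wild type mice (log2 fold change of 0.59, SE 0.08, adjusted p = 3.83e-05). Among genes called lower was Rbl2, which encodes the p130 pocket protein that represses E2F targets in resting cells. It averaged 36.0 CPM in Rag1-/- and 51.2 CPM in wild type mice (log2 fold change of -0.51, SE 0.07, adjusted p = 3.74e-05), and 35.8 CPM in co-housed and 59.5 CPM in separate Tcra-/- mice (log2 fold change of -0.73, SE 0.07, adjusted p = 4.18e-07).

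Among the 58 members, 5 were called in none of the 6 comparisons: Ccne2, Cdt1, E2f1, Kif23 and Prim1. Of these, Kif23 averaged 29.1 ± 1.94 CPM in Rag1-/-, 27.5 ± 3.06 CPM in co-housed Tcra-/-, 24.99 ± 3.78 CPM in separate Tcra-/- and 30.7 ± 5.41 CPM in wild type mice. Kif23, Cdt1 and Ccne2 did not follow the order of the member sum, and for Ccne2 reads of Ints8 may be included. The standard errors of these 5 in co-housed against separate mice ran from 0.13 for Kif23 to 0.21 for E2f1.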

How the data were processed

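RNA of the terminal ileum was measured in 12 mice, 3 per group, 1 library per mouse, and groups follow the titles of the labels. Per the submitters' processing notes, the tools were bcl2fastq, TopHat2 2.0.11 with Bowtie2 2.2.2.0 on mm9, and featureCounts from Subread 1.4.5-p1. The authors' own tests used DESeq2 1.12.3, per the same notes. Deposited values are raw read counts per gene, whole numbers with no normalization, per the file headers. The sources used here do not give the annotation, the strand setting or how reads with several matches were treated.

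Counts were fitted in R 4.3.3 with edgeR 4.0.16, a robust quasi-likelihood model of all 12 libraries with 1 term per group and 8 residual degrees of freedom, TMM factors (0.926 to 1.07) and filterByExpr, which kept 15866 genes. Contrasts were two-sided, p was adjusted by Benjamini-Hochberg over all genes of a comparison, and genes under 0.01 were called, as in the design text. Adjusted p-values in the text come from this test. Each SE was taken as the absolute log2 fold change over the square root of the F statistic. CPM use the TMM-normalized library size, and means are given with the SD of 3 mice. RPKM divide by the deposited gene length.

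The members, the lists and the rule for naming genes were chosen with earlier results of these data known. Values per mouse with tests are given for the 25 members with the smallest adjusted p in any comparison and for the member with the highest RPKM of each role. Others are given by mean, count or range, some of them, such as those never called, chosen after their values were seen. Of the other 122 cell cycle genes, up to 4 called genes per comparison with the smallest adjusted p could be named. The marker genes Muc2, Gcsam, Jchain and Mzb1 were not analysed here, and some genes of the lists are not reported here by name. No 2 libraries of the same group agreed within sampling noise, as the chi-square per degree of freedom of replicate pairs was 19.1 to 95.4. Alternatives were DESeq2 1.42.0, library size alone, no filter, CPM above 1 in at least 3 libraries, the 6 libraries of a comparison alone, an adjusted p under 0.05, and leaving out each mouse.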

Additional observations from a re-analysis of the deposited data

Results flagged for a closer look

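Levels in Tcra-/- mice differed between the housing groups in 52 of the 58 members, where 38.8% of all genes tested were called. Both Tcra-/- groups were set against the same wild type mice. A difference between their fold changes is tested by co-housed against separate Tcra-/- mice, at an adjusted p under 0.01 with edgeR's quasi-likelihood test. The median log2 fold change against wild type mice was 0.44 in co-housed and -0.48 in separate Tcra-/- mice. Ccnd1 had log2 fold changes of 1.41 in co-housed and -1.24 in separate Tcra-/- mice, each against wild type mice. Genotype and housing cannot be told apart in the comparison of separate Tcra-/- with wild type mice, so no effect of genotype alone is measured. Cage and housing cannot be told apart either, since the labels do not give the number of cages.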

How the results depend on the processing

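No member that was called in the main test or under an alternative changed its direction under any alternative. For Rag1-/- against wild type mice, 8 members and 1494 of all genes tested were called higher. DESeq2 gave 14 members and 1940 genes, and library size alone gave 3 members and 713 genes. At an adjusted p under 0.05 there were 18 members and 2321 genes. Leaving out 1 mouse at a time gave 4 to 11 members higher and 0 to 1 lower. Over all genes it gave 1079 to 1200 higher and 1355 to 1609 lower. For co-housed against separate Tcra-/- mice, leaving out 1 mouse gave 46 to 52 members higher and 0 to 1 lower. Over all genes it gave 2717 to 3229 higher and 2236 to 2741 lower. Library size alone gave 1 member and 3695 genes lower. For separate Tcra-/- against wild type mice, leaving out 1 mouse gave 14 to 23 members lower, and over all genes 791 to 975 lower. For co-housed Tcra-/- against wild type mice, library size alone gave 9 higher, an adjusted p under 0.05 gave 39, and leaving out 1 mouse gave 10 to 22. Over all genes these gave 795, 2346 and 1063 to 1320 higher. For Rag1-/- against co-housed Tcra-/- mice, DESeq2 and an adjusted p under 0.05 gave 1 higher each, and over all genes 246 and 231 higher. For Rag1-/- against separate Tcra-/- mice, leaving out 1 mouse gave 37 to 43 members higher and 0 to 1 lower. Over all genes it gave 2259 to 2530 higher and 2252 to 2552 lower. Over the fits that leave out a mouse, a lost call comes with fewer samples. For library size alone, which moved the median of all genes by up to 0.17 on the log2 scale, the cause was not tested. No paired analysis was made because the labels give no pairing of mice between groups. The lowest member count in any library was 88 reads. Whether depth or the spread among 3 mice sets the precision was not tested.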
